A study of Mus musculus with 56 samples.

Results

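Cytosolic ribosomal protein genes encode the protein part of the ribosome that translates nuclear mRNAs. The members were the rows of the count table whose symbol was Rplp0, Rplp1, Rplp2 or Rpsa, or Rpl or Rps followed by a number and at most 1 letter a, x or l, without pseudogene symbols and without the Rps6k kinases. This gave 83 of 55011 gene symbols. The rule used names only and no measured value. In the GENCODE M21 annotation, 80 of the 83 are protein coding, and 3 that met the naming rule, Rpl32l, Rpl6l and Rps4l, are processed pseudogenes. The set holds core proteins of both subunits and a few tissue-restricted copies, and it leaves out ribosomal proteins with other names (such as Fau, Rps3a1 and Rack1). The 84 mitochondrial ribosomal protein genes, whose products serve the ribosome inside mitochondria, were kept as a separate list.

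The study followed regulatory T cells (Tregs, Foxp3-expressing CD4 T cells that restrain immune responses) in mice fed a high-fat or a chow diet. All mouse libraries came from C57BL/6 mice carrying the vTreg53 T cell receptor transgene, and only Tregs stained by the antibody to that receptor (clonotype+) were sorted, so the sorted cells share 1 receptor; the labels speak of recipient mice without saying what they received. From 12 weeks of age the animals received high-fat diet (HFD) or normal chow diet (NCD) for 2, 4, 8 or 16 weeks, and Tregs were taken from visceral adipose tissue (VAT) and spleen. VAT Tregs gave 11 HFD libraries, 11 NCD libraries and 3 week 0 libraries, and spleen Tregs gave 12 HFD, 11 NCD and 3 week 0 libraries, with 2 or 3 libraries per diet and week. In a separate experiment, mice of 8 to 10 weeks carrying a PPARgamma-tdT and a Foxp3-GFP knock-in were given IL-33 injections to expand their VAT Tregs. The tdT-positive VAT Tregs were kept in culture for 3 days. The medium held IL-33 at 10 ng/ml and IL-2 at 2000 U/ml, and IFNa at 50 ng/ml was added for 2 libraries and left out for 3, called control. All 5 therefore describe cells grown in both cytokines.

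Each library was made from 1000 sorted cells by oligo(dT) priming, amplification for 18 PCR cycles and transposase fragmentation, and was read as pairs of 38 bases. Totals were 3248686 to 6091439 counts in the 51 mouse libraries and 5408696 to 8764390 counts in the 5 cultured ones. The characteristics of the spleen libraries carry the same tissue word as the VAT libraries, and tissue was therefore taken from the sample titles. In the NCD weeks, Pparg, the nuclear receptor that marks VAT Tregs, averaged 105 ± 24.7 CPM in VAT and 1.31 ± 2.12 CPM in spleen libraries (SD, n = 11 and 11). Foxp3 averaged 1048 ± 68.3 CPM in VAT and 707 ± 54.0 CPM in spleen libraries of those weeks (SD, n = 11 and 11). VAT libraries were higher in both genes there, and Pparg was near 0 in spleen, as the titles would have it. Over all weeks and diets, the sum of genes that mark VAT Tregs, Pparg among them, ran from 3194 to 10151 CPM in the 25 VAT libraries. In the 26 spleen libraries it ran from 417 to 1108 CPM. Nothing in the labels says that replicates came from separate mice, so the p-values below measure the spread between libraries, which may be technical.

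Each mature ribosome holds a single copy of most of its proteins, and cells adjust their production together. In mammals most of these mRNAs begin with a C inside an unbroken stretch of pyrimidines, the 5′ terminal oligopyrimidine (TOP) tract, through which mTORC1 and Larp1 control their translation and stability when nutrients or growth signals change. Resting T cells hold few ribosomes and raise ribosome production when they are activated.

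Transcript starts are shown for 6 members on which later results turn. Rps27 and its paralogue Rps27l went opposite ways between tissues. Rps16 and Rps24 were among the most altered members between tissues, and Rps24 had the smallest p among the members with IFNa. Rplp2 belongs to the ribosomal stalk, and Rps2 varied apart from the others. Each window has 30 bases on the gene's own strand, from RefSeq on GRCm38.p6, with the first transcribed base at letter 16. Capitals mark the longest pyrimidine run that has a base at the start or within 3 bases of it on either side. A TOP mRNA begins with a C inside its run, which this rule did not require.
Rps27, chr3:90213634-90213663, minus strand: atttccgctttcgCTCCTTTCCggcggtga
Rps27l, chr9:66946071-66946100, plus strand: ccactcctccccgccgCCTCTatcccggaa
Rps16, chr7:28350674-28350703, plus strand: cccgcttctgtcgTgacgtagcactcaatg
Rps24, chr14:24490663-24490692, plus strand: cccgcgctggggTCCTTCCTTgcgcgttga
Rplp2, chr7:141447636-141447665, plus strand: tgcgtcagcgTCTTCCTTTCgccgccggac
Rps2, chr17:24720048-24720077, plus strand: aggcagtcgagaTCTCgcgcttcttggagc
Rps27, Rps24 and Rplp2 have runs of 9, 9 and 10 pyrimidines over the start, with the first bases C, T and C. Rps2 has a run of 4 over the start, Rps27l has 5 that begin after it and Rps16 has 1 before it. Where RefSeq lists several starts, the upstream one is shown; Rps24 and Rps27l each have a second start with a run of 2. Promoter entries were found for 61 members, with 73 starts in all. By the rule above, a run of at least 8 pyrimidines, whatever the first base, was present at 22 of these 73 starts (30.1%). The same held for 2592 of 32851 starts in the whole table (7.89%). The first base was C at 28.8% of member starts and at 16.3% of all starts. In the 300 bases from 250 before to 50 after the start, on either strand, CCGGAAG (the core bound by ETS factors) was present in 35.6% of member windows and 8.86% of all windows, ATGGCGG (bound by YY1) in 17.8% and 4.05%, TATAAA in 9.59% and 13.6%, and CACGTG in 10.96% and 7.15%. These matches describe letters only, and the annotated start can lie some bases away from the one used in Tregs.

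The members took 1.96% ± 0.229 of all counts in VAT libraries (SD, n = 25) and 3.12% ± 0.393 in spleen libraries (n = 26). The exact 95% binomial interval of any single share was at most 0.0199 percentage points wide on either side and covers counting error only. VAT shares were 2.24%, 2.10% and 1.88% at week 0, all below the spleen shares of 3.58%, 3.51% and 3.51%. After 2 weeks of diet, VAT libraries held 2.00%, 2.00% and 2.04% on HFD and 1.92%, 1.91% and 1.98% on NCD, and spleen libraries 2.89%, 3.00% and 2.93% on HFD and 3.48%, 3.62% and 3.36% on NCD. The 3 spleen HFD libraries of week 2 lay below all 3 of their NCD counterparts, and the VAT HFD libraries lay slightly above theirs.

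At week 4 the VAT shares were 1.64% and 1.64% on HFD and 1.86%, 2.08% and 2.13% on NCD, and the spleen shares 3.45%, 3.36% and 2.62% on HFD and 3.44% and 3.35% on NCD. At week 8 they were 2.19%, 1.86% and 1.79% on HFD and 1.85%, 1.86% and 1.57% on NCD in VAT, and 2.40%, 2.51% and 2.98% on HFD and 3.52%, 3.11% and 3.31% on NCD in spleen. At week 16 they were 2.12%, 1.91% and 2.71% on HFD and 1.84% and 1.92% on NCD in VAT, and 2.20%, 2.68% and 2.89% on HFD and 3.01%, 3.09% and 3.26% on NCD in spleen. The highest VAT share (HFD week 16, replicate 3) stayed above the 5 lowest spleen HFD shares, so the tissues overlapped on HFD, while on NCD and at week 0 every VAT share was below every spleen share. Cultured VAT Tregs held 5.15% and 5.40% with IFNa and 4.95%, 5.40% and 5.02% without it, above every mouse library. In these bulk samples, fewer cells of a type and less RNA per cell cannot be told apart, and a share of counts says nothing of the absolute amount per cell.

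**Figure D1:**
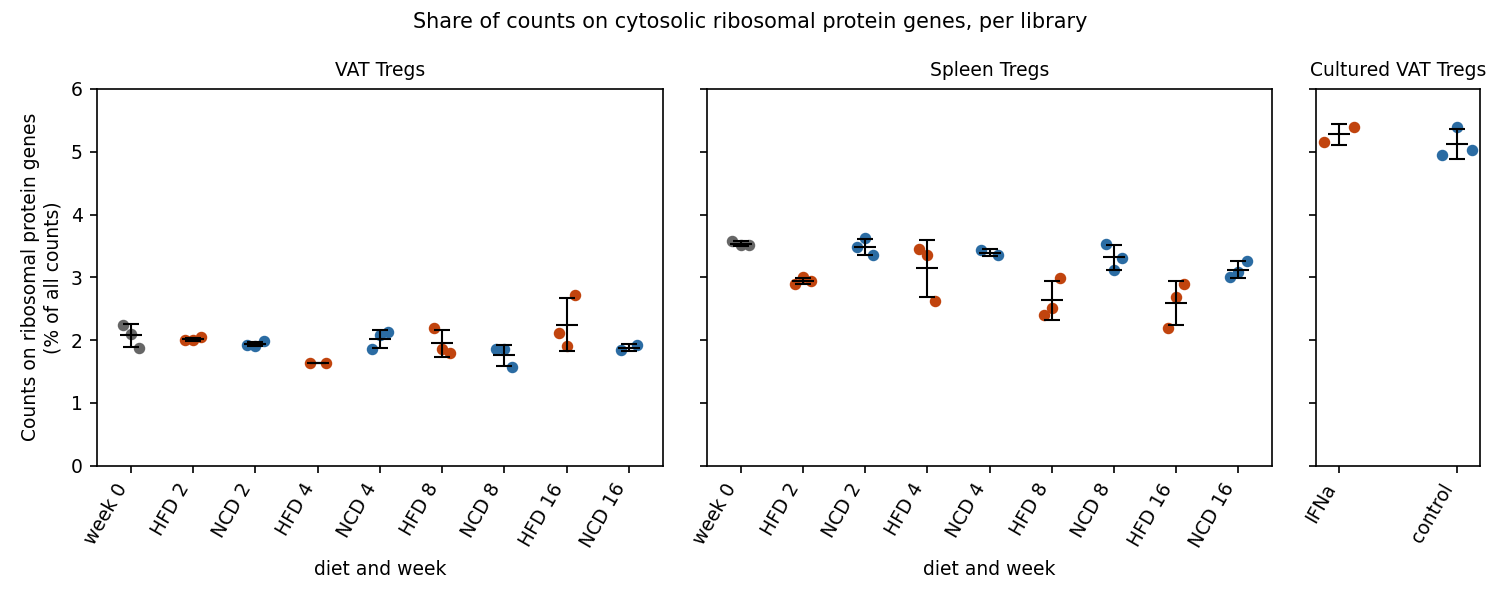
Share of all counts that fell on the 83 ribosomal protein genes (y axis, percent), with 1 point per library, the mean as a bar and the SD as whiskers. Week 0 is grey, HFD or IFNa is orange and NCD or control is blue; VAT libraries sit between 1.57% and 2.71%, spleen libraries between 2.20% and 3.62%, and cultured VAT Tregs between 4.95% and 5.40%.

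Levels of single members were given as CPM (counts scaled to a common library size) on libraries scaled by TMM, a normalization that assumes most genes do not differ. Per kilobase of the median coding transcript, Rps3, Rpl4, Rplp0 and Rpl8 were among the highest in the mouse libraries, with 2229 ± 429, 2145 ± 381, 2125 ± 322 and 1664 ± 387 CPM per kilobase (SD over 51 libraries). Rps3 lines the mRNA entry channel of the small subunit, Rplp0 anchors the stalk that recruits elongation factors, and Rpl8 lies near the peptidyl transferase centre of the large subunit. The lowest core member was Rpl24 with 11.3 ± 2.98 CPM per kilobase, and Rps27l had 48.8 ± 13.6. Tissue-restricted copies were close to 0. Rpl10l, known from testis, had 4 counts in all 56 libraries, Rpl3l, known from heart and skeletal muscle, had 29, and Rpl39l had 134. Of the rows annotated as pseudogenes, Rpl32l had 70 and Rpl6l had 209 counts, and at most 16 counts of any of these 5 fell in a single library. A count of 3 corresponded to 0.492 to 0.923 CPM in the mouse libraries, so their levels lay around the detection limit. The filter on low counts kept 79 members in VAT and in the joint fit of both tissues, and 78 in spleen and in culture; Rpl10l, Rpl3l, Rpl32l and Rpl6l were tested nowhere, and Rpl39l only in VAT and in the joint fit. Reads that fit a processed pseudogene as well as its parent could not be placed by this table, and how such reads were counted is not given here.

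Members moved together from library to library. Among 45 mouse libraries in groups of 3, 15 had over 90% of the 79 tested members on the same side of their group mean. That mean includes the library itself, so an outlying library also shifts the others of its group to the opposite side. In spleen HFD week 4, 78, 75 and 0 members lay above it in replicates 1, 2 and 3. Other genes were not counted in this way. All 79 members were above the group mean in VAT week 0 replicate 1, 78 were above it in spleen HFD week 8 replicate 3, 75 in VAT HFD week 16 replicate 3 and 0 in spleen HFD week 4 replicate 3. Calls on many members are therefore not independent of each other. The median spread within groups was 0.19 on the log2 scale over the 65 members with a mean above 50 CPM. Rps2, a small subunit protein at the mRNA entrance, stood apart with 0.62, against 0.28 for the next member of that set. Its level ranged from 63.0 to 569 CPM, 9.03-fold, over the mouse libraries.

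Between tissues, nearly the whole set was lower in VAT Tregs. At week 0, 67 of 79 tested members were lower in VAT and 1 was higher (edgeR quasi-likelihood test, Benjamini-Hochberg adjusted p under 0.05), while 14.6% of all 15601 genes tested were lower and 16.7% were higher. In the NCD weeks pooled, 72 were lower and 1 higher, against 27.4% and 27.1% of all genes. In the HFD weeks, 59 were lower and 1 higher, against 25.1% and 22.3% of all genes. The median member log2 fold change was -0.69 at week 0, -0.63 in the NCD weeks and -0.35 in the HFD weeks, and the medians of all genes were -0.04, -0.04 and -0.06. The 3 comparisons share no library. They come from the same joint fit, with a common scaling and a shared estimate of spread, so their calls are not independent. In total 57 members were lower in all 3, 12 in 2 and 3 in 1, and 7 were lower in none. At week 0, 69 members had all VAT libraries below all spleen libraries, in the NCD weeks 52 and in the HFD weeks 0. Over all genes tested, 22.8%, 5.49% and 2.07% were separated in that direction. At week 0, Rps2 and Rps4l had all VAT libraries above all spleen libraries, as had 24.3% of all genes; 0 members did in the NCD and HFD weeks, against 7.04% and 3.99% of all genes.

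Rpl8, with the lowest p in the NCD weeks, showed the pattern at a high level. At week 0 it had 1322, 1291 and 1212 CPM in VAT and 2006, 2117 and 2061 CPM in spleen. In the NCD weeks the lowest, median and highest libraries had 1035, 1217 and 1347 CPM in VAT and 1632, 2040.4 and 2135 CPM in spleen, and in the HFD weeks 1117, 1236 and 1544 CPM in VAT and 1279.7, 1656 and 2009 CPM in spleen. The tissues did not overlap at week 0 or on NCD, and they did overlap on HFD, where spleen values were lower than on NCD. The log2 fold changes were -0.69 ± 0.10 at week 0, -0.71 ± 0.05 in the NCD weeks and -0.43 ± 0.05 in the HFD weeks (edgeR adjusted p = 3.25e-07, 8.36e-16 and 1.08e-09).

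Rps16, a head protein of the small subunit, showed a larger relative difference. It had 78.0, 72.0 and 60.04 CPM in VAT and 172, 173 and 157 CPM in spleen at week 0. The lowest, median and highest libraries had 47.0, 71.5 and 85.1 CPM in VAT and 127, 150.3 and 179 CPM in spleen on NCD, and 54.3, 70.8 and 122 CPM in VAT and 90.6, 116 and 161 CPM in spleen on HFD. Every VAT library was below every spleen library outside HFD. The log2 fold changes were -1.25 ± 0.18, -1.11 ± 0.09 and -0.69 ± 0.09 at week 0, on NCD and on HFD (edgeR adjusted p = 3.07e-07, 6.8e-14 and 2.31e-08).

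Rps27, whose transcript start is shown above, was the most lowered of the called members at week 0. Its values there were 106, 101 and 96.8 CPM in VAT and 265, 250.4 and 242 CPM in spleen, a log2 fold change of -1.32 ± 0.21 (edgeR adjusted p = 3.3e-06). It was also lower in VAT in the NCD weeks (-1.06 ± 0.11, adjusted p = 6.67e-11) and in the HFD weeks (-0.69 ± 0.11, adjusted p = 1.1e-06). Its paralogue Rps27l, a p53-induced gene, went the other way. In the NCD weeks the lowest, median and highest libraries had 17.3, 28.5 and 41.4 CPM of Rps27l in VAT and 14.7, 19.2 and 29.7 CPM in spleen, with overlapping ranges. Rps27l was higher in VAT in the NCD weeks (0.55 ± 0.15, edgeR adjusted p = 0.00215) and in the HFD weeks (0.41 ± 0.15, adjusted p = 0.0187), and gave 0.11 ± 0.29 at week 0 (adjusted p = 0.807). Among 11 tested p53 targets, 7 were higher and 1 lower in VAT in the NCD weeks, against 27.1% and 27.4% of all genes. Cdkn1a, a cell cycle inhibitor, had 232 ± 54.3 CPM in VAT and 2.63 ± 1.90 CPM in spleen libraries (SD, n = 11 and 11). The sum of the p53 list, Cdkn1a included, had a median of 1171 CPM in VAT NCD and 883 CPM in spleen NCD libraries. The part of p53 in the Rps27l difference was not tested.

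**Figure D2:**
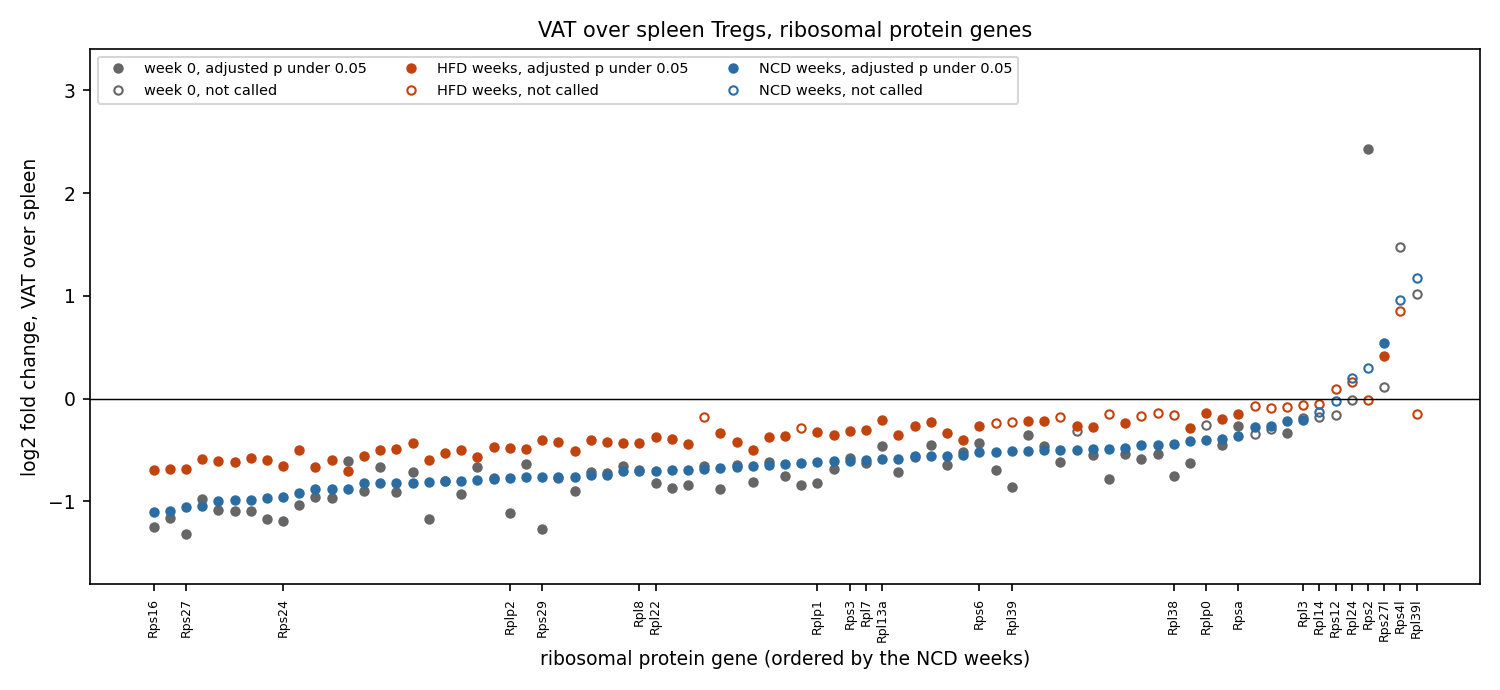
log2 fold change of VAT over spleen Tregs (y axis) for each tested ribosomal protein gene (x axis, ordered by the NCD weeks, with some genes labelled), at week 0 (grey), in the HFD weeks (orange) and in the NCD weeks (blue). Filled points passed adjusted p under 0.05; nearly all lie below 0, the HFD weeks lie nearer to 0 than the NCD weeks, and Rps27l stands above 0 at the right with Rps2, which is above 0 at week 0 and on NCD and at -0.01 on HFD, and with the uncalled Rps4l and Rpl39l.

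The stalk proteins, which recruit elongation factors, spanned a wide range. At week 0, Rplp0 gave -0.25 ± 0.11 (edgeR adjusted p = 0.0621), while Rplp1 gave -0.82 ± 0.20 (adjusted p = 0.00127) and Rplp2 -1.11 ± 0.21 (adjusted p = 3.76e-05). In the NCD weeks all 3 were lower, with -0.40 ± 0.06 for Rplp0, -0.62 ± 0.10 for Rplp1 and -0.77 ± 0.11 for Rplp2 (adjusted p = 3.91e-08, 3.72e-06 and 8.34e-08). Whether the 3 differ from each other was not tested.

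Rpl5 and Rpl11, which with 5S rRNA can bind Mdm2 and stabilise p53, were lower in VAT at week 0, with log2 fold changes of -0.62 ± 0.11 and -0.52 ± 0.13 (edgeR adjusted p = 2.21e-05 and 0.00225). Rpl22, needed in mice for the development of alpha-beta T cells, gave -0.82 ± 0.12 (adjusted p = 8.59e-07). Rps6, the substrate of S6 kinase, gave -0.43 ± 0.11 (adjusted p = 0.00192), and Rps19, whose human counterpart is mutated in Diamond-Blackfan anaemia, gave -1.09 ± 0.21 (adjusted p = 6.85e-05). All 5 were also lower in the NCD weeks and the HFD weeks. Rpl10, one of the last proteins to join the large subunit, and Rps4x, encoded on the X chromosome, were lower at week 0 with -0.53 ± 0.12 and -0.55 ± 0.09 (adjusted p = 0.000324 and 6.73e-06).

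The short proteins showed a wide range. Rps29 gave -1.27 ± 0.25 at week 0 (edgeR adjusted p = 7.38e-05), Rpl39 of the exit tunnel gave -0.86 ± 0.20 (adjusted p = 0.000666), Rpl36a gave -0.80 ± 0.22 (adjusted p = 0.00441) and Rpl38, which in mouse embryos is needed for the translation of Hox mRNAs, gave -0.76 ± 0.26 (adjusted p = 0.0222). In the HFD weeks Rpl39 and Rpl38 did not pass the threshold (-0.22 ± 0.10 and -0.16 ± 0.14, adjusted p = 0.0707 and 0.35). Split into 3 parts by coding transcript length, members had medians of -0.81 for short, -0.63 for middle and -0.63 for long transcripts at week 0. Split into 3 parts by mean level, the medians were -0.72, -0.71 and -0.65 from low to high. Small subunit members had a median of -0.77 with 28 of 32 lower, and large subunit members a median of -0.66 with 39 of 47 lower.

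The members that did not pass in any tissue comparison were Rpl14, Rpl24, Rps12, Rps4l and Rpl39l. In the NCD weeks, Rps12 had 108 ± 9.99 CPM in VAT and 111 ± 14.96 CPM in spleen libraries (SD, n = 11 and 11). Rpl14 had 219 ± 39.2 CPM in VAT and 239 ± 20.7 CPM in spleen libraries of those weeks (SD, n = 11 and 11). Rpsa, also known as the laminin receptor, and Rpl13a passed in all 3, though the calls of Rpsa, Rpl13a and Rpl38 at week 0 were lost in some settings, as were those of Rpl10, Rplp0, Rplp1, Rpsa, Rpl13a, Rps29 and Rps27l in the HFD weeks. Rps2 was the member that was higher in VAT at week 0, with 569, 552 and 463 CPM in VAT and 63.0, 89.3 and 140.2 CPM in spleen (2.43 ± 0.52, adjusted p = 0.000412). In the NCD weeks its lowest, median and highest libraries had 88.0, 261 and 492 CPM in VAT and 72.6, 259 and 464 CPM in spleen (0.30 ± 0.26, adjusted p = 0.349), so the week 0 difference did not recur there.

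**Figure D3:**
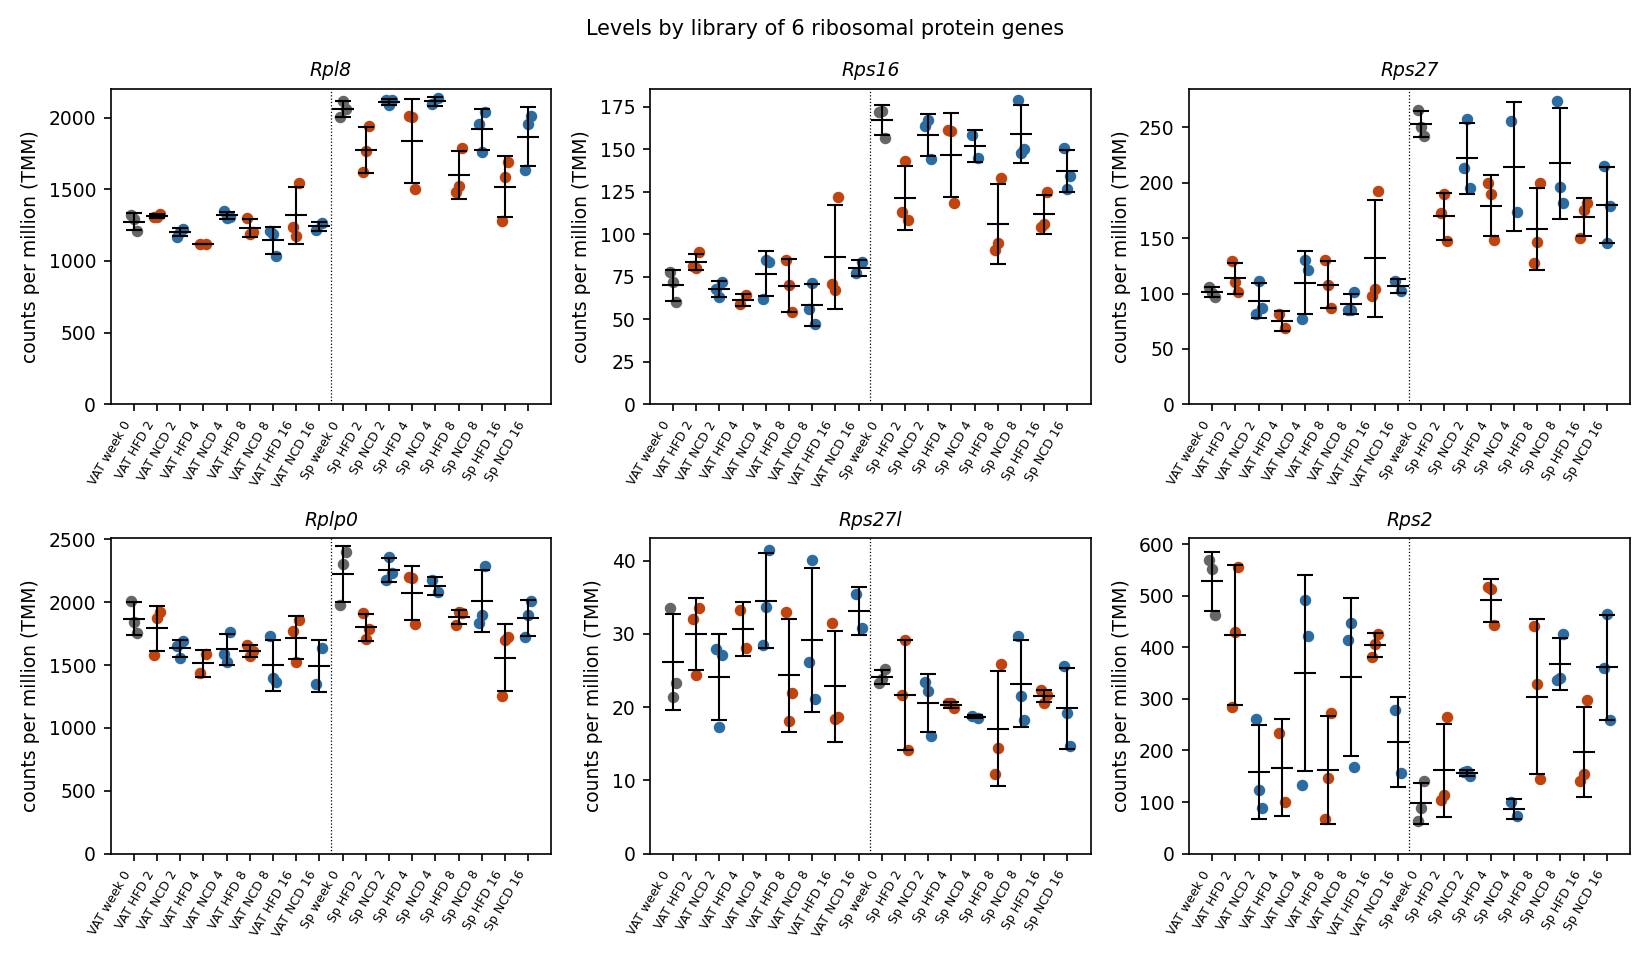
CPM (y axis, from 0) in every mouse library for 6 members, with VAT groups left of the dotted line and spleen groups right of it, means as bars and SD as whiskers; grey is week 0, orange HFD and blue NCD. Rpl8, Rps16 and Rps27 sit lower in VAT, Rplp0 less so, Rps27l has overlapping ranges in both tissues and Rps2 is scattered from 63.0 to 569 CPM.

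Genes near the members in function gave smaller medians. In the NCD weeks, to which the mean levels in this paragraph belong, 27.4% of all genes tested were lower and 27.1% higher in VAT. Of 8 tested ribosomal proteins with other symbols, 6 were lower and 0 higher in VAT in the NCD weeks, with a median of -0.51. Of 19 translation factors and other genes with TOP mRNAs, 12 were lower and 2 higher, with a median of -0.20; Eef1b2, an elongation factor subunit, had 789 ± 71.6 CPM in VAT and 1202 ± 70.8 CPM in spleen libraries (SD, n = 11 and 11). Of 79 tested mitochondrial ribosomal protein genes, 23 were lower and 9 higher, with a median of -0.12. Of 24 ribosome biogenesis genes, 10 were higher and 3 lower, with a median of 0.22, and Myc, which drives many of them, had 169.7 ± 41.7 CPM in VAT and 88.8 ± 18.9 CPM in spleen libraries (SD, n = 11 and 11). Of 13 genes of mTORC1 and TOP mRNA control, 3 were higher and 3 lower, with Larp1, which binds TOP mRNAs, at 30.3 ± 6.00 CPM in VAT and 42.7 ± 5.82 CPM in spleen libraries (SD, n = 11 and 11) (edgeR adjusted p = 1.9e-05).

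Other gene lists separated the tissues as well. Of 20 immediate early and heat shock genes, which respond within minutes to stimulation or handling, 19 were higher and 1 lower in VAT in the NCD weeks. Their summed level in those weeks ran from 19671 to 38530 CPM in VAT and from 1708 to 2392 CPM in spleen. Over all mouse libraries it ran from 11902 to 38530 CPM in VAT and from 1708 to 2495 CPM in spleen. Of 10 resting lymphoid T cell genes, 8 were lower and 1 higher in VAT in the NCD weeks. Their sum in those weeks ran from 1102 to 1525 CPM in VAT and from 1943 to 4057 CPM in spleen, without overlap. Over all mouse libraries it ran from 1102 to 2531 CPM in VAT and from 1674 to 4057 CPM in spleen, with overlap. The part of either difference in the ribosomal protein result was not tested. Markers of several other cells were low, with the sums that follow taken over all mouse libraries. The sum of 8 macrophage genes was at most 9.01 CPM in VAT and 24.9 CPM in spleen, that of 6 adipocyte genes at most 7.53 CPM in VAT and 1.93 CPM in spleen, and that of 5 stromal genes at most 7.31 CPM in VAT and 5.73 CPM in spleen. The sum of 8 B cell genes ran from 363 to 6262 CPM in VAT and from 1201 to 4356 CPM in spleen. Nearly all of it was Ighm (2053 ± 2158 CPM in VAT NCD and 1700.2 ± 386 CPM in spleen NCD libraries, SD, n = 11 and 11), while Ms4a1 and Cd79a averaged under 3 CPM. The endothelial sum ran from 34.7 to 144 CPM in VAT and from 148 to 371 CPM in spleen without overlap. Its only tested gene, Pecam1, had 70.9 ± 29.1 CPM in VAT NCD and 294 ± 57.7 CPM in spleen NCD libraries (SD, n = 11 and 11). The sum of NK and CD8 T cell genes reached 94.9 CPM in VAT and 78.3 CPM in spleen, that of dendritic cell genes 29.8 CPM in VAT and 28.6 CPM in spleen, and that of erythroid genes 10.6 CPM in VAT and 113 CPM in spleen. The part of these lists was not tested. Mitochondrially encoded genes took 0.844% to 1.56% of counts in the mouse libraries.

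In spleen Tregs the members sat lower on HFD. Over the mean of the 4 weeks, 19 of 78 tested members were lower and 0 higher on HFD (edgeR adjusted p under 0.05), against 0.32% of all 14686 genes lower and 0.613% higher. The median member log2 fold change was -0.26, and that of all genes was 0.00. The lower members were 9 of the large subunit and 10 of the small subunit, and 71 members had an unadjusted p under 0.05, against 14.3% of all genes. With the weeks pooled, the HFD and NCD ranges overlapped for all 78 members, and 0% of all genes were separated in either direction.

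Rpl13, a large subunit protein, was among the members with the smallest p. At week 2 it had 494, 472 and 473 CPM on HFD and 584, 618 and 543 CPM on NCD, at week 4 569, 532 and 459 CPM on HFD and 556 and 572 CPM on NCD, at week 8 380.0, 400.1 and 493 CPM on HFD and 544, 524 and 589 CPM on NCD, and at week 16 353, 438 and 473 CPM on HFD and 513, 539.7 and 548 CPM on NCD. All HFD libraries were below all NCD libraries at weeks 2, 8 and 16, and at week 4 an HFD library lay between the NCD libraries. Over the 4 weeks the log2 fold change was -0.29 ± 0.05 (edgeR adjusted p = 0.0107). Rps3 gave -0.22 ± 0.04, Rpl23 -0.32 ± 0.07, Rpl8 -0.26 ± 0.06, Rps15 -0.34 ± 0.07, Rpl7 -0.23 ± 0.05 and Rps16 -0.33 ± 0.07 (adjusted p = 0.0145, 0.0263, 0.0263, 0.0263, 0.0284 and 0.0292). Rpl22, Rps6 and Rps4x also fell, by 0.26, 0.23 and 0.22 on the log2 scale (adjusted p = 0.0356, 0.0317 and 0.0346). Rplp0, Rpl5, Rps27 and Rps19 gave -0.19 ± 0.05, -0.22 ± 0.06, -0.30 ± 0.09 and -0.32 ± 0.09 without passing (adjusted p = 0.0879, 0.0649, 0.0995 and 0.0655).

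The count of 19 depended on single libraries. It was 45 without HFD week 8 replicate 3 and 29 without HFD week 4 replicate 1, and 12 without NCD week 4 replicate 1 or HFD week 2 replicate 1. It was 7 without NCD week 2 replicate 2, 5 without NCD week 16 replicate 3 and 4 without HFD week 4 replicate 3 or HFD week 8 replicate 2. It was 3 without NCD week 8 replicate 1, HFD week 8 replicate 1 or HFD week 16 replicate 1, and 2 without NCD week 4 replicate 2. The median stayed between -0.29 and -0.22 through all of these. With a whole week left out of the mean, the count was 0 without week 2, week 8 or week 16.

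Week by week, the spleen members leaned the same way but passed the threshold in almost no case. At week 2, 75 of 78 were below 0 with a median of -0.22, 0 passed, and 21 had an unadjusted p under 0.05, as had 9.55% of all genes; 0.0272% of all genes passed in either direction. At week 4, 69 were below 0 with a median of -0.14, and Rps2 alone passed, upward, against 1.24% of all genes. At week 8, 76 were below 0 with a median of -0.41, 0 passed with edgeR and 6 with DESeq2, and 58 had an unadjusted p under 0.05, as had 4.88% of all genes; 0% of all genes passed with edgeR. Without HFD week 8 replicate 3, the library with 78 members above its group mean, 7 members passed at week 8. At week 16, 75 were below 0 with a median of -0.24, 0 passed, and 29 had an unadjusted p under 0.05, as had 6.64% of all genes; again 0% of all genes passed. At weeks 2 and 16 DESeq2 and limma voom called 0 members as well. In all, 65 members were below 0 in all 4 weeks. Rps2 at week 4 had 517, 514 and 442 CPM on HFD and 101 and 72.6 CPM on NCD (2.50 ± 0.50, edgeR adjusted p = 0.0142), and that call was lost without either NCD library, leaving 0. The week 4 median was -0.0033 without HFD replicate 3.

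In VAT Tregs the direction of the members changed from week to week. At week 2, 74 of 79 were above 0 with a median of 0.16, at week 4, 77 were below 0 with a median of -0.24, at week 8, 74 were above 0 with a median of 0.16, and at week 16, 60 were above 0 with a median of 0.10. No member passed in any of these 4 comparisons with edgeR, DESeq2 or limma voom, and 5, 15, 2 and 2 members had an unadjusted p under 0.05, against 10.1%, 9.78%, 13.1% and 21.7% of all genes. Of all 14164 genes tested, 0.0565%, 0.0212%, 1.33% and 9.24% passed in either direction at weeks 2, 4, 8 and 16. Altogether 52 members were above 0 at weeks 2, 8 and 16 and below 0 at week 4. Leaving out the highest library, HFD week 16 replicate 3, took the week 16 median to -0.10. The week 16 libraries also differed in other lists. The VAT Treg sum was 3194, 5123 and 3670.0 CPM on HFD and 9411 and 8695 CPM on NCD, and the immediate early and heat shock sum 11902, 23611 and 15553 CPM on HFD and 38218 and 38530.1 CPM on NCD. Their part in the members' values was not tested.

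Over the 4 weeks together, Rpl13a was the member that passed in VAT, against 4.2% of all genes in either direction, and the member median was 0.04. Rpl13a is a large subunit protein that in human myeloid cells can leave the ribosome to silence transcripts after interferon-gamma. It had 71.9, 76.5 and 86.2 CPM on HFD and 56.9, 53 and 59.2 CPM on NCD at week 2, and lowest, median and highest values of 52.8, 67.3 and 86.2 CPM on HFD and 45.6, 54.7 and 67.9 CPM on NCD over all weeks. The week 2 libraries did not overlap, and the pooled ones did. The log2 fold change was 0.27 ± 0.08 (edgeR adjusted p = 0.0444). The call held without each of 5 of the 22 libraries, namely NCD week 2 replicate 3, NCD week 4 replicate 3, NCD week 8 replicate 1, HFD week 2 replicate 1 and HFD week 16 replicate 2, and was lost, leaving 0, without any of the other 17.

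**Figure D4:**
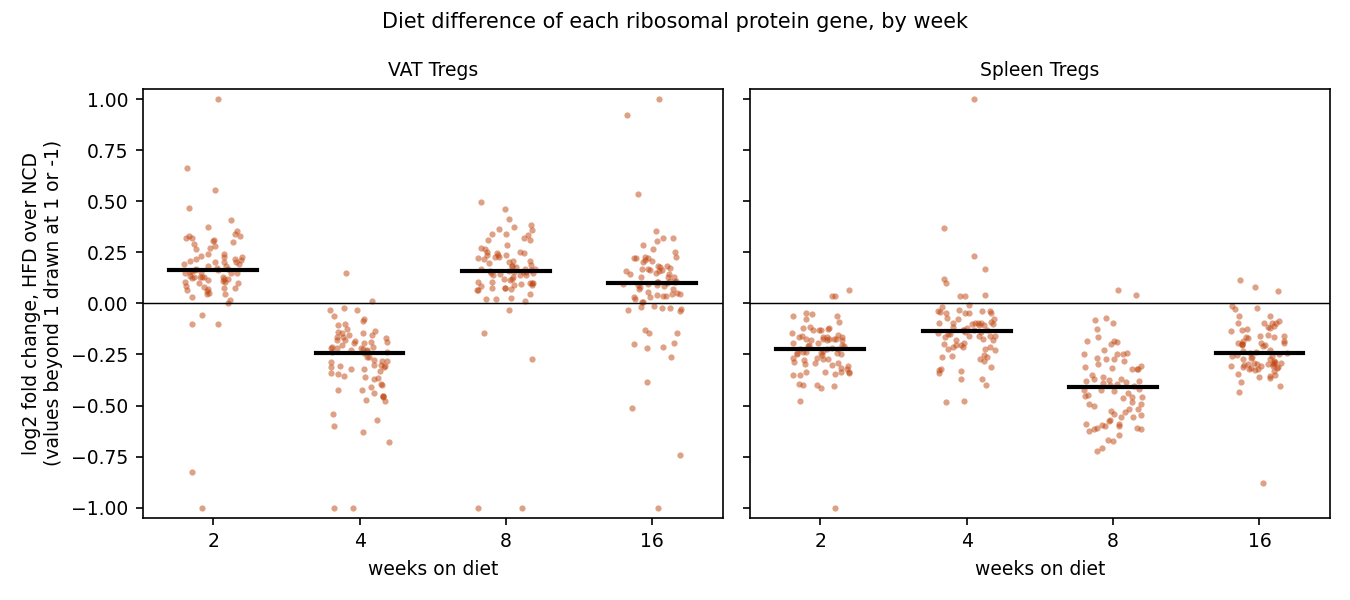
log2 fold change of HFD over NCD (y axis; values beyond 1 are drawn at the edge) for each tested member at 2, 4, 8 and 16 weeks of diet, in VAT Tregs (left) and spleen Tregs (right), with the median as a black bar. Spleen medians are -0.22, -0.14, -0.41 and -0.24, and VAT medians are 0.16, -0.24, 0.16 and 0.10.

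The diet difference itself differed between tissues. In the joint fit, the diet effect in VAT minus that in spleen was above 0 for 74 of 79 members with a median of 0.28, and 8 members passed upward and 0 downward (edgeR adjusted p under 0.05), against 1.08% of all genes upward and 1.35% downward. Rpl7, Rps3, Rpl13a, Rpl8, Rpl22, Rpl4 and Rpl12 were among them. Rpl7 had 562, 649 and 754 CPM on HFD and 549, 621 and 647 CPM on NCD in VAT, as lowest, median and highest library, and 636, 787 and 922 CPM on HFD and 788, 932 and 977 CPM on NCD in spleen. VAT values of both diets lay close together, and spleen HFD values were lower than spleen NCD values with overlapping ranges. The difference of effects for Rpl7 was 0.29 ± 0.07 (adjusted p = 0.00785). The same test is the change in the VAT to spleen difference between diets, and 74 members had a smaller drop in the HFD weeks than in the NCD weeks. It uses the libraries of the comparisons above and is no separate evidence.

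The count of 8 also moved with single libraries. In spleen it was 15 without HFD week 8 replicate 3, 13 without HFD week 16 replicate 3, 5 without HFD week 8 replicate 2 or NCD week 8 replicate 3, 4 without NCD week 2 replicate 2 or NCD week 16 replicate 3, 3 without HFD week 8 replicate 1, HFD week 16 replicate 1 or NCD week 4 replicate 2, and 2 without HFD week 4 replicate 3. In VAT it was 15 without HFD week 16 replicate 2, 5 without HFD week 2 replicate 3 or NCD week 8 replicate 3, 4 without HFD week 4 replicate 3, HFD week 8 replicate 1, NCD week 2 replicate 1 or NCD week 4 replicate 1, 3 without HFD week 4 replicate 2 or HFD week 16 replicate 3, and 2 without NCD week 16 replicate 2. The median stayed between 0.23 and 0.32. With a whole week left out, the count was 2 without week 2, 33 without week 4 and 0 without week 8 or week 16.

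Companion lists in spleen differed in their share of calls. Over the 4 weeks, 0.32% of all genes tested were lower on HFD and 0.613% were higher. On HFD over the 4 weeks, 2 of 8 other ribosomal proteins and 2 of 19 TOP translation genes were lower, namely Rack1, Rps3a1, Eef1b2 and Npm1, while 0 of 79 mitochondrial ribosomal protein genes, 0 of 24 ribosome biogenesis genes, 0 of 10 resting lymphoid genes and 0 of 16 immediate early or stress genes passed. Rack1, a scaffold on the small subunit, averaged 2297 ± 286 CPM in HFD spleen and 2630.0 ± 202 CPM in NCD spleen libraries (SD, n = 12 and 11) (-0.21 ± 0.05, edgeR adjusted p = 0.0346). Other lists differed with diet in spleen in level. Of 6 genes that mark VAT Tregs, 1 was higher on HFD and 0 lower, and the median of their sum was 819.9 CPM on HFD and 564 CPM on NCD. Median sums of the Treg list were 3640 CPM on HFD and 3331 CPM on NCD, and those of immediate early and heat shock genes 2185 CPM on HFD and 1906 CPM on NCD, with 0 calls in either list. The resting lymphoid genes had a median log2 fold change of -0.29, and their sum ran from 1674 to 3443 CPM on HFD and from 1943 to 4057 CPM on NCD. The sum of B cell genes ran from 1460 to 4356 CPM on HFD and from 1201 to 2512 CPM on NCD. Their part in the members' lower level was not tested.

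Time on chow was compared between week 16 and week 0. In VAT, 0 of 79 members passed with edgeR, 1 with limma voom and 0 with DESeq2, 3 had an unadjusted p under 0.05 (13.1% of all genes), and the median was 0.00, against 0.713% of all genes passing in either direction. In spleen, Rps2 alone passed, upward, against 0.654% of all genes, and 77 of 78 members were below 0 with a median of -0.24. Rps2 had 360.0, 464 and 259 CPM at week 16 and 63.0, 89.3 and 140.2 CPM at week 0 (1.89 ± 0.42, adjusted p = 0.045). That call was lost, leaving 0, without week 0 replicate 1 or 2 or week 16 replicate 1 or 2. Limma voom and the fit with a replicate block each called 0 members in spleen. In 54 members all 3 week 16 libraries were below all 3 week 0 libraries, against 7.21% of all genes, and in 1, Rps2, they were above, against 7.5% of all genes. The week 0 mice are also the younger ones, so age and time on diet cannot be told apart.

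In cultured VAT Tregs, a few members were slightly higher with IFNa. Of 78 tested members, 7 were higher and 0 lower (edgeR adjusted p under 0.05), against 10.6% of all 12604 genes higher and 11% lower, so the share of members called was near the background. The member median was 0.11 and that of all genes 0.01. Rps24, Rpl9, Rps14, Rpl12, Rps18 and Rps27 were among them. Rps24 had 662 and 685 CPM with IFNa and 518, 597 and 486 CPM in control (0.34 ± 0.08, adjusted p = 0.00628). Rpl12 had 874 and 887 CPM with IFNa and 739, 802 and 685 CPM in control (0.25 ± 0.08, adjusted p = 0.0256), and Rpl9 had 755 and 785 CPM with IFNa and 626, 674 and 619 CPM in control (0.27 ± 0.07, adjusted p = 0.0119). The treated and control libraries did not overlap for any of the 7, and for 25 members in all both IFNa libraries exceeded all controls, against 24.9% of all genes. For 3 members, Rpl11, Rpl13a and Rps2, both IFNa libraries were below all controls, against 23.5% of all genes.

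Rps2 was again apart in culture, with 422 and 172 CPM with IFNa and 579, 715 and 862 CPM in control (-1.28 ± 0.52, edgeR adjusted p = 0.217). Rplp0 and Rps6 gave 0.03 ± 0.07 and 0.12 ± 0.08 (adjusted p = 0.793 and 0.344), and Rpl13a gave -0.20 ± 0.10 (adjusted p = 0.175). The count of 7 was 15 without control replicate 2, 3 without control replicate 1 and 0 without control replicate 3. With 1 IFNa library left, the member median was 0.15 without IFNa replicate 1 and 0.047 without IFNa replicate 2. Calls were not counted there, since that library is assumed to vary like the others. Among 24 ribosome biogenesis genes, 2 were higher and 3 lower with IFNa; Myc averaged 856 ± 30.1 CPM in IFNa and 616 ± 50.3 CPM in control libraries (SD, n = 2 and 3). Among 5 tested B cell genes 2 were lower with IFNa, Cd79b averaging 43.8 ± 4.71 CPM in IFNa and 64.2 ± 5.61 CPM in control libraries (SD, n = 2 and 3), and the sum of granulocyte genes ran from 46.1 to 47.4 CPM with IFNa and from 116 to 167 CPM in control. Their part in the result was not tested.

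Set beside ex vivo VAT Tregs, the cultured libraries held more of nearly every member. On CPM of total counts, the range of the 5 cultured libraries lay above that of the 25 VAT libraries for 72 of 78 members and overlapped it for 6, namely Rps4l, Rps2, Rps20, Rps3, Rpl8 and Rpl4. Of 13830 genes with a mean above 0.9 CPM in VAT, the level also asked of members, 13.4% had a cultured range above the VAT range and 15.4% had one below it. The ratio of means had a median of 3.72 over the members and 0.870 over those genes. It was highest for Rps28, with 249.9 ± 21.9 CPM in culture and 18.8 ± 5.03 CPM in VAT (SD, a ratio of 13.3), Rpl38, with 252 ± 15.4 CPM in culture and 20.9 ± 4.40 CPM in VAT (SD, a ratio of 12.0), and Rps27l, with 292 ± 35.7 CPM in culture and 25.9 ± 5.99 CPM in VAT (SD, a ratio of 11.3). It was lowest for Rpl4, with 3207 ± 122 CPM in culture and 2683 ± 285 CPM in VAT (SD, a ratio of 1.20), and Rpl8, with 1419 ± 68.7 CPM in culture and 1154 ± 109 CPM in VAT (SD, a ratio of 1.23). Over 77 members with a coding length, the ratio and the length of the transcript ran in opposite directions (Spearman's rho = -0.52, over members that share libraries and their preparation). Culture, IL-33 injection, mouse strain construct and experiment changed together here, so these values carry no test and the sources cannot be told apart.

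**Figure D5:**
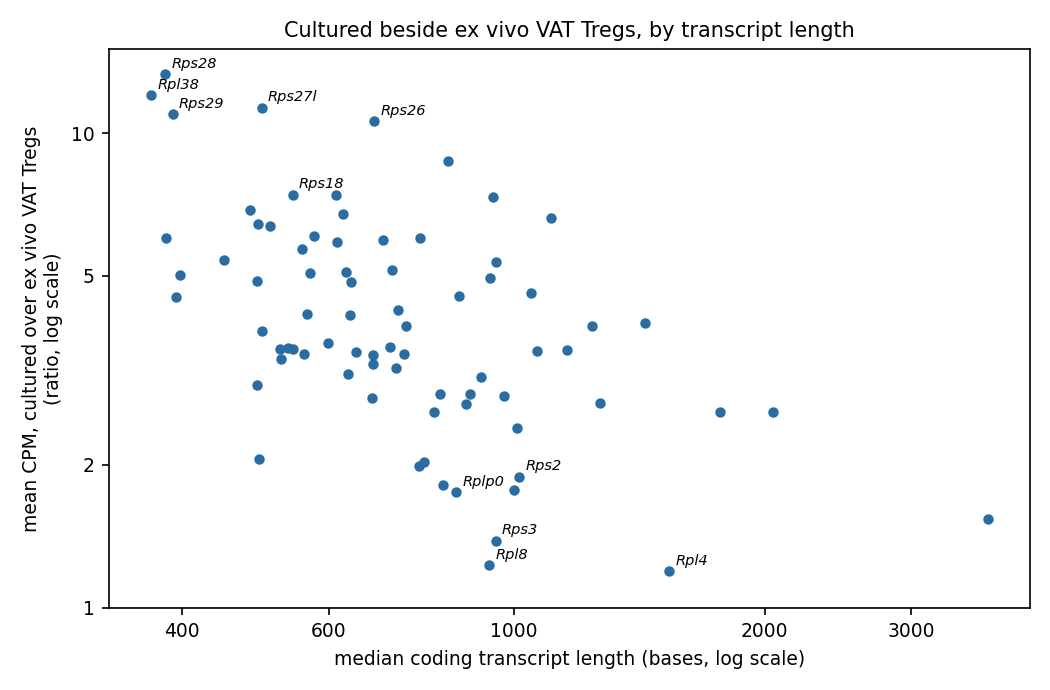
Ratio of mean CPM in 5 cultured libraries over 25 ex vivo VAT libraries (y axis, log scale) against median coding transcript length (x axis, bases, log scale), with 1 point per member. Ratios run from 13.3 for Rps28 to 1.20 for Rpl4, and the shortest transcripts hold most of the high ratios.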

How the data were processed

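Gene-level counts were deposited for 56 libraries. Per the submitters' processing notes, the tools were featureCounts and STAR 2.7.3a and the build was mm10; how multi-mapping reads, strand and annotation were handled is not given here. The values are raw counts per gene symbol, as the authors deposited them, and no table column lacked a sample. Groups came from sample titles and labels. From the counts, edgeR 4.0.16 in R 4.3.3 gave the main tests: TMM scaling, filterByExpr, a robust quasi-likelihood fit per set (VAT, spleen, both tissues, culture) and Benjamini-Hochberg adjustment over all genes tested, with a threshold of 0.05. Errors after log2 fold changes are standard errors. DESeq2 1.42.0, limma 3.58.1 (voom), other scalings, no filter, a GC content and length correction, a replicate block, single groups, and leaving out libraries or weeks were alternatives. The code was tested on simulated counts with known changes.

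Member CPM values use TMM-scaled library sizes, whereas shares and the culture ratio use total counts. With at least 54332 member counts per mouse library and 278699 per cultured one, counting error is small beside the spread between libraries for most members. Named members were, per comparison, the called ones with the smallest p, up to 8 in each direction, plus a fixed list of stalk, paralogue and well-studied proteins and the 5 highest and 5 lowest per kilobase; Rps2, Rps12 and Rpl14 and the members listed as not passing or as overlapping were also named where their values set them apart. The members and lists were chosen with earlier results of these data known. Gene lengths are medians over coding transcripts of GENCODE M21. Promoter sequences are from RefSeq. Values of some members are not reported here, although they enter all counts and medians.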

Additional observations from a re-analysis of the deposited data

Results flagged for a closer look

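The difference between the diet effect in VAT and that in spleen passed the edgeR test for 8 members and was above 0 for each. It concerns the diet effect and not the level in VAT. The median diet effect over members was 0.04 in VAT and -0.26 in spleen. Among them, the differences on the log2 scale were 0.39 for Rpl13a, 0.34 for Rpl12, 0.33 for Rpl22, 0.29 for Rpl7, 0.29 for Rpl4, 0.28 for Rps3 and 0.27 for Rpl8. The adjusted p ranged from 0.00785 for Rpl7 to 0.0492 for Rpl12. The count moved between 2 and 15 when single libraries were left out, and without the week 8 or the week 16 libraries it was 0.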

How the results depend on the processing

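Over all alternatives, members called between tissues numbered 55 to 72 at week 0, 70 to 74 on NCD and 44 to 66 on HFD. Member medians kept their sign in all comparisons but 3, namely the VAT diet mean, VAT week 16 and VAT week 16 against week 0 on NCD, where no median reached 0.25 in either direction. For the spleen diet mean, main count 19, the count was 40 without a filter, 41 with DESeq2, 10 with only the groups compared, 0 without week 2, 0 without week 8 and 0 without week 16, and 2 to 45 with single libraries left out. For the tissue difference of the diet effect, main count 8, it was 17 without a filter, 19 with DESeq2, 3 with limma voom, 19 with the GC content and length correction, 33 without week 4, 2 without week 2, 0 without week 8 and 0 without week 16, and 2 to 15 with single libraries left out. The VAT diet mean gave 0 in place of 1 without a filter, with limma voom and without week 2, 8 or 16, and 0 to 1 with single libraries left out. In spleen, week 2 gave 1 without a filter, week 4 gave 0 to 1 with single libraries left out, and week 8 gave 14 without a filter, 6 with DESeq2 and 0 to 7 with single libraries left out. Week 16 in VAT gave 1 with only the groups compared, and the VAT week 2 median was 0.085 with the GC content and length correction. Week 16 against week 0 in VAT gave 1 lower member with limma voom and 2 lower members with only the groups compared. In spleen, where the main call was Rps2 upward, 4 members were lower and 0 higher without a filter. Limma voom called 0 there, and 0 to 1 passed with single libraries left out. IFNa gave 13 with the GC content and length correction and 0 to 15 with single control libraries left out. The cause was not tested.

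The labels do not say whether replicate numbers pair libraries. On deviations from group means, a correlation over 0.1 was seen in 0 of 12 same-numbered pairs for diet in VAT and 1 of 14 in spleen. It was seen in 2 of 24 pairs between tissues and 0 of 2 in culture. The pairs between tissues were from HFD week 16 (0.21 and 0.14), and the spleen pair was from week 16 (0.17). With 2 or 3 libraries per group, these correlations cannot decide whether libraries were paired. With a replicate block the counts were 14 for the spleen diet mean, 8 for the tissue difference, 68, 73 and 60 for the tissue comparisons at week 0, on NCD and on HFD, 7 for IFNa and 0 for spleen week 16 against week 0.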
